A study of Mus musculus with 14 samples.

Results

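Aminoacyl-tRNA synthetases, the enzymes that load each amino acid onto its tRNA, were examined in quadriceps muscle of mice with and without the histone deacetylase HDAC3. The set was fixed by gene symbol: 20 genes for the cytosolic enzymes and 16 for the mitochondrial ones, whose symbols end in 2. All 36 were found among the 24354 gene symbols of the expression table, and all 36 passed the filter on low values (a mean of at least 1 FPKM over the 6 libraries), as did 10501 genes in all.

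The mice were male C57BL/6 animals aged 4 months on normal chow and a normal light and dark schedule, with no specific treatment. RNA-seq was made at rest at ZT10, which is 10 hours after lights on, from 3 libraries labelled HDAC3 wild type and 3 labelled HDAC3 knock-out. The labels state neither how the depletion was made (no promoter or Cre is named) nor whether each library is 1 animal. Of the 14 samples of the series, the other 8 (ChIP-seq, input and nascent RNA) were not analysed here. Levels are FPKM, fragments scaled to transcript length and library size, so they can be compared between genes. How the libraries were scaled is not stated.

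Hdac3 itself was at 33.3, 31.0 and 23.7 FPKM in the wild-type libraries and at 5.51, 6.29 and 8.16 in the knockout libraries. The 6 libraries had FPKM sums of 454359 to 495099, and a depth of 0.660 to 1.02 times that of wild-type replicate 1, with knockout replicates 1 and 3 the shallowest. Muscle markers summed to 50550 to 62090 FPKM in every library, with all 7 detected. Of these 7, limma called Des, the gene of the intermediate filament desmin, which rose from 498.5 ± 111 to 960 ± 119.5 FPKM (0.94 ± 0.21, adjusted p = 0.0326), and none lower. Among markers of other cells, the 7 neutrophil genes summed to 510 FPKM in wild-type replicate 2 and to between 3.39 and 9.43 in the other 5 libraries (limma called none, also at an unadjusted p under 0.05, and the authors' q called 4 lower). The 7 fibroblast genes summed to 422 to 599 FPKM in wild type and 289 to 446 in the knockout, and limma called none of them (1 lower at an unadjusted p under 0.05, and 2 lower by the authors' q). Macrophage, endothelial, adipocyte and satellite cell lists (7 genes each) had overlapping sums in the 2 groups, with no gene called by limma. At an unadjusted p under 0.05 limma had 1 satellite cell gene higher and 2 lower, as against 1 higher and 1 lower by the authors' q. The satellite cell sum was carried by Cd34 and Sdc4. Cd34 had means of 27.72 FPKM in wild type and 27.25 in the knockout. Sdc4 went up, from 15.06 to 26.22, and its groups overlapped. Calcr, under the filter, went from 0.208 to 0.0827, also with overlap. The satellite cell genes Pax7 (0.227 to 0.0511 FPKM, wild-type to knockout mean), Myf5 (1.04 to 0.400), Cdh15 (3.45 to 1.72) and Chodl (4.15 to 2.64) each had every knockout library below every wild-type library, the first 2 being under the filter. So did Col1a2 of the fibroblast list and Lep of the adipocyte list, Lep being under the filter. Mrc1 of the macrophage list and Des had every knockout library above. Over all tested genes 11.9% were wholly below and 14.2% wholly above. None of these marker genes was at 0 in every library. Their part in the results below was not tested, beyond the values given without wild-type replicate 2. In bulk tissue a change in cell make-up and a change in RNA per cell cannot be told apart.

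Each synthetase recognises 1 amino acid and its tRNAs and joins them at the cost of ATP. The cytosolic enzymes feed the ribosomes that make nearly all proteins, and a separate set encoded in the nucleus serves translation inside mitochondria. Gars and Kars are exceptions, since each gives both a cytosolic and a mitochondrial enzyme. Eprs joins the glutamate and proline enzymes in a single chain. Several cytosolic synthetase genes are known targets of ATF4, the transcription factor of the amino acid and integrated stress response. Skeletal muscle holds a large share of the body's protein and keeps renewing it.

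In wild-type muscle the cytosolic genes were the more abundant class. Their median level was 22.4 FPKM against 5.59 for the mitochondrial genes, and 18 of 20 were at 10 FPKM or more against 3 of 16. Eprs led the cytosolic class at 108 ± 11.2 FPKM (SD, n = 3), followed by Nars at 44.4 ± 4.36 and Dars at 44.3 ± 5.07, the asparagine and aspartate enzymes, which differed by less than their spread. Vars, the valine enzyme, was lowest at 4.43 ± 1.41. Leaving Lars2 aside, the mitochondrial class ran from Iars2, the isoleucine enzyme, at 26.2 ± 2.54 FPKM to Ears2, the glutamate enzyme, at 1.30 ± 0.275. Matched by amino acid, the cytosolic gene was the higher in 14 of 17 pairs (Eprs enters with both Ears2 and Pars2, and Fars2 with both Farsa and Farsb), with a median ratio of 2.31. The 3 pairs with a higher mitochondrial gene were Iars and Iars2, Farsa and Fars2, and Lars and Lars2.

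**Figure D1:**
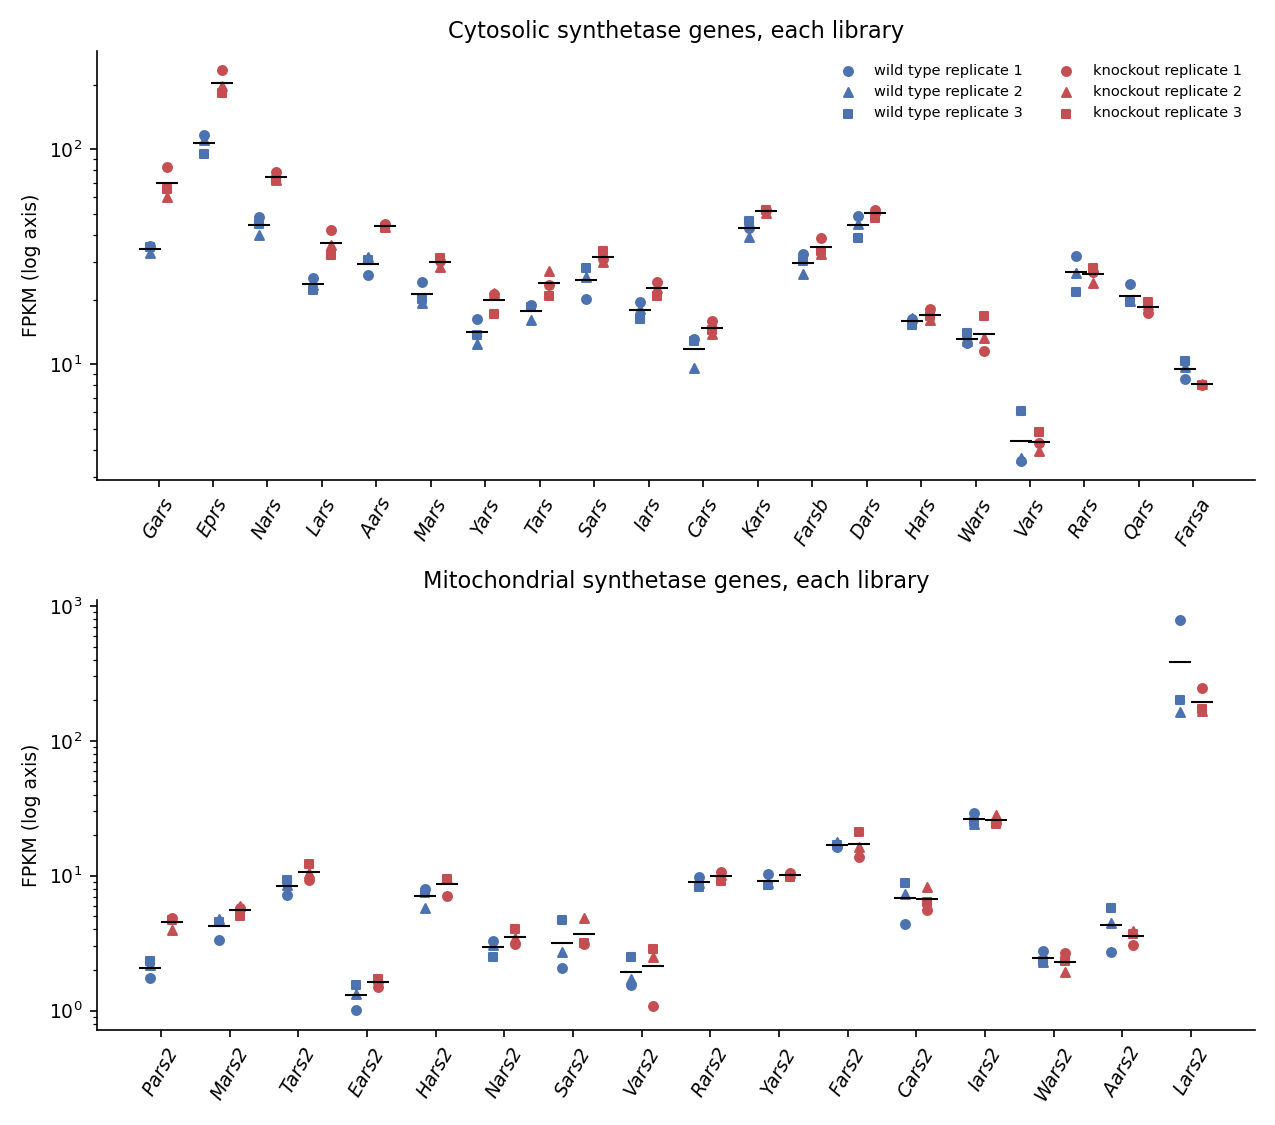
FPKM on a log axis for every synthetase gene (x axis, ordered from the highest to the lowest fold change), with wild-type libraries in blue and knockout libraries in red, a symbol per replicate and a black bar at each group mean. The knockout libraries of Gars, Eprs, Nars, Lars, Aars and Pars2 lie above all 3 wild-type libraries, and wild-type replicate 1 stands alone at 792 FPKM for Lars2.

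In the knockout 5 cytosolic genes rose and none fell: Gars, Eprs, Nars, Lars and Aars, the enzymes for glycine, glutamate and proline, asparagine, leucine and alanine. Of the mitochondrial genes 1 of 16 rose, Pars2, the proline enzyme. A gene was called at an adjusted p under 0.05 by limma on log2(FPKM + 1), two-sided, with Benjamini-Hochberg adjustment over 10501 genes. By this rule 2.30% of all tested genes were called higher and 1.34% lower, against 5 of 20 and 0 of the cytosolic and 1 of 16 (6.25%) and 0 of the mitochondrial genes. No synthetase fell at an unadjusted p under 0.05 either, whereas 11 cytosolic genes and 1 mitochondrial gene were higher at that level. In the authors' deposited table, at q under 0.05, 6 cytosolic genes and 1 mitochondrial gene were higher and 1 mitochondrial gene lower, where 5.90% of 9204 tested genes were higher and 4.94% lower.

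Gars, which charges glycine tRNA in both compartments, had 35.4, 32.9 and 35.3 FPKM in the wild-type libraries and 82.7, 60.2 and 65.3 in the knockout libraries. All knockout libraries were above all wild-type libraries, and the mean rose 2.01-fold (log2 fold change 1.01 ± 0.15 SE, limma adjusted p = 0.0182). Eprs, whose glutamate and proline domains sit in the multisynthetase complex, had 117, 111 and 95.2 FPKM in wild type and 233, 197 and 182 in the knockout. The groups were again separate, with a rise of 1.90-fold (0.92 ± 0.14, adjusted p = 0.0184 by limma). It was the most abundant cytosolic gene in both groups, so its change in FPKM was also the largest of that class.

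Nars, the asparagine enzyme, had 48.5, 39.8 and 44.9 FPKM in wild type and 78.5, 72.4 and 71.7 in the knockout. It rose 1.67-fold (0.74 ± 0.09, limma adjusted p = 0.0184), without overlap between the groups. Lars, the leucine enzyme and also known as a leucine sensor upstream of mTORC1, went from 25.2, 23.5 and 22.3 FPKM to 42.1, 36.1 and 32.3. Its rise was 1.56-fold (0.64 ± 0.12, adjusted p = 0.0405 by limma), the weakest call of the 6. Aars, the alanine enzyme, went from 26.0, 31.5 and 30.4 FPKM to 45.0, 43.6 and 43.7, a 1.5-fold rise (0.59 ± 0.08, limma adjusted p = 0.0297). All of its knockout libraries were above all of its wild-type libraries, and they lay closer together than the wild-type ones.

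Pars2 had 1.73, 2.18 and 2.32 FPKM in wild type and 4.90, 3.98 and 4.68 in the knockout. The rise of 2.18-fold (1.12 ± 0.15, adjusted p = 0.0245 by limma) was the highest ratio of all 36 genes, at a low level. Both genes for proline enzymes, Eprs and Pars2, were thus among the 6 that rose. The mitochondrial glutamate enzyme gene Ears2, the lowest member by mean level, was at 1.01, 1.33 and 1.55 FPKM in wild type and 1.49, 1.72 and 1.72 in the knockout. Its groups overlapped, and it was not called (0.34 ± 0.19, limma adjusted p = 0.499).

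The sizes of these changes varied little with the libraries used, but the calls did. With each library left out in turn, log2 fold changes stayed within 0.86 to 1.10 for Gars, 0.82 to 1.0 for Eprs, 0.67 to 0.81 for Nars, 0.53 to 0.73 for Lars, 0.51 to 0.64 for Aars and 1.01 to 1.21 for Pars2. The limma calls on 5 libraries were fewer: none of the 36 when wild-type replicate 2 was dropped (adjusted p of the 6 genes between 0.0906 and 0.153) or when knockout replicate 3 was (0.0622 to 0.111). Gars alone passed without knockout replicate 1 or knockout replicate 2. Without wild-type replicate 3 Gars, Eprs and Nars passed, and without wild-type replicate 1 Mars passed beside these 3 (adjusted p = 0.0488). Over all tested genes the same fits called 19 genes when wild-type replicate 2 was dropped and 46 for knockout replicate 3, against 383 with all libraries. With no filter on low values Lars and Pars2 were not called (limma adjusted p = 0.0610 and 0.0503). Wild-type replicate 2 is the library with the high neutrophil sum, and without it the rises of the 6 genes by limma were 0.61 to 0.94 on the log2(FPKM + 1) scale.

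Of the 15 cytosolic genes not called, 8 had every knockout library above every wild-type library: Mars, Yars, Tars, Sars, Iars, Cars, Kars and Farsb. With the 5 called genes that made 13 of 20 cytosolic genes, against 14.2% of all tested genes and 2 of 16 mitochondrial genes (12.5%). Mars, the methionine enzyme, came nearest, with 24.1, 19.4 and 20.0 FPKM in wild type and 30.2, 28.4 and 31.2 in the knockout (0.50 ± 0.11, limma adjusted p = 0.0643). Yars, the tyrosine enzyme, had 16.3, 12.5 and 13.7 FPKM against 21.3, 21.5 and 17.1 (0.50 ± 0.15). Its q in the authors' deposited table was 0.0298, while limma gave an adjusted p of 0.120. Tars, Sars and Iars, for threonine, serine and isoleucine, had log2 fold changes of 0.42 ± 0.13, 0.35 ± 0.15 and 0.33 ± 0.10, with limma adjusted p of 0.140, 0.205 and 0.166. Cars, Kars and Dars, for cysteine, lysine and aspartate, stood at 0.32 ± 0.15, 0.26 ± 0.07 and 0.20 ± 0.10.

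At the lower end of the class, Hars and Wars, the histidine and tryptophan enzymes, had log2 fold changes of 0.09 ± 0.06 and 0.08 ± 0.17. Rars and Vars, for arginine and valine, were at -0.03 ± 0.17 and -0.02 ± 0.28, and Qars, for glutamine, at -0.17 ± 0.11. Vars overlapped fully, at 3.56, 3.67 and 6.05 FPKM in wild type and 4.32, 3.95 and 4.88 in the knockout. The cytosolic phenylalanine enzyme is built of 2 subunits, and their genes had fold changes of opposite sign. Farsa, the alpha subunit, had 8.56, 9.70 and 10.4 FPKM in wild type and 8.04, 8.16 and 8.03 in the knockout (-0.24 ± 0.08, limma adjusted p = 0.330). Farsb, the beta subunit, had 32.5, 26.4 and 30.2 FPKM against 38.8, 32.7 and 33.6 (0.24 ± 0.12, adjusted p = 0.328 by limma). Neither was called, although both groups were separate in each, and Farsa was the only synthetase with every knockout library below every wild-type library, as 11.9% of all tested genes were.

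**Figure D2:**
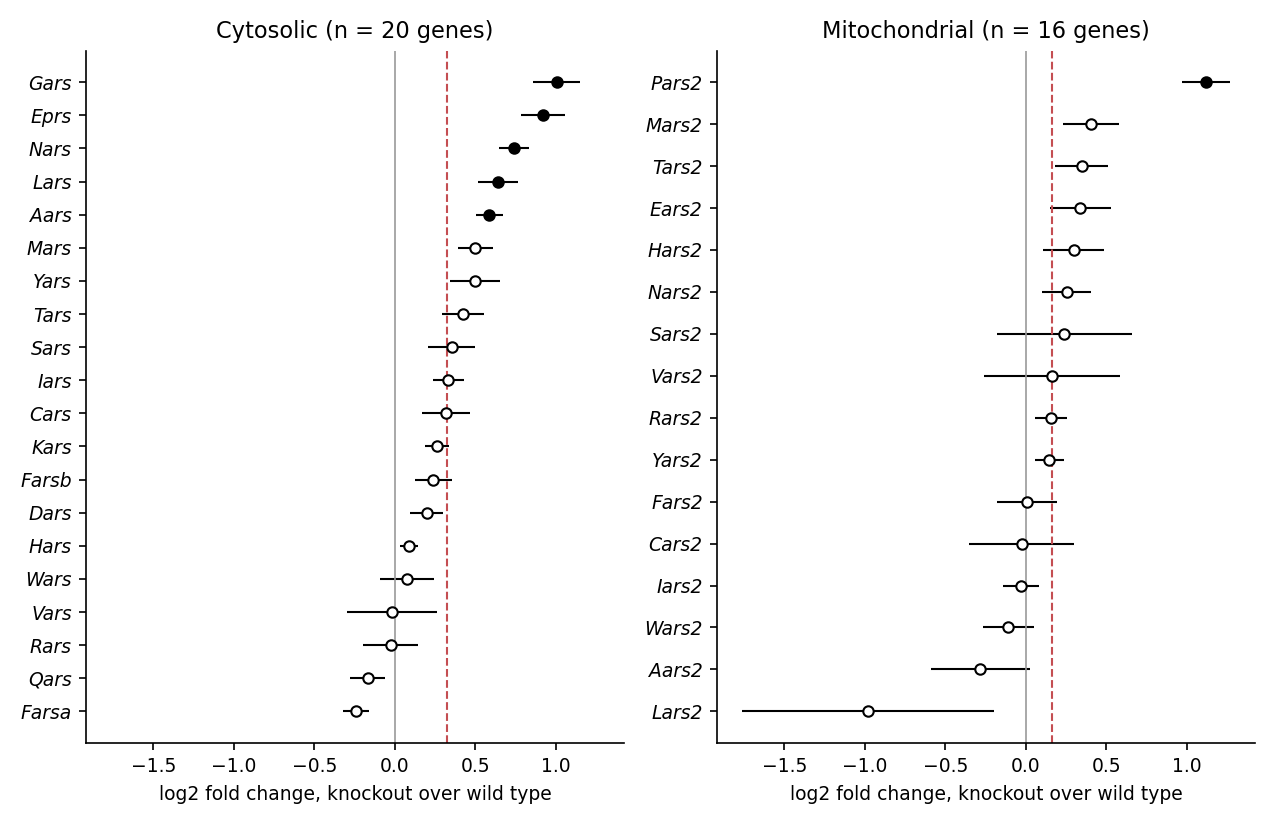
Log2 fold change of FPKM, knockout over wild type (x axis), for the cytosolic genes (left) and the mitochondrial genes (right), with bars of 1 SE from 3 libraries per group. Filled points passed limma at an adjusted p under 0.05, and dashed lines mark the class medians of 0.33 and 0.16.

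As classes, the 2 sets had median log2 fold changes of 0.33 (16 of 20 above 0) and 0.16 (11 of 16 above 0), against 0.00 for all 10501 genes, of which 49.8% were above 0. The difference between the classes was not tested, since the genes were chosen with results of these data known. The mitochondrial genes were also the less precisely measured, with a median SE of 0.18 against 0.12. Summed over the 20 cytosolic genes, the wild-type libraries held 585.5, 539 and 540 FPKM and the knockout libraries 857, 773 and 761. The mitochondrial sum was 895, 267 and 312 FPKM against 352, 289 and 292, and its wild-type replicate 1 rested on Lars2.

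Lars2, the mitochondrial leucine enzyme, had the highest mean of all 36 genes in wild type, and came after Eprs in the knockout (195 against 204 FPKM). It was at 792, 163 and 201 FPKM in wild type and 245, 168 and 173 in the knockout. Only wild-type replicate 1 stood apart, and the other 2 wild-type libraries lay within or below the knockout range. The authors' deposited table gave it as lower in the knockout with a q of 0.00119, while limma did not call it (log2 fold change -0.98 ± 0.78, adjusted p = 0.587). Without wild-type replicate 1 its log2 fold change was 0.10 by the ratio of means. The ribosomal RNA gene Rn45s, which can show leftover ribosomal RNA, was at 354, 156 and 344 FPKM in wild type and 169, 155 and 161 in the knockout, so it was high in wild-type replicate 1 but also in wild-type replicate 3. Its part in the Lars2 value was not tested. The submitters' notes name no annotation, so which reads were counted for Lars2 is not known.

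The remaining 13 mitochondrial genes were not called, and all but Mars2 overlapped between the groups. Mars2, the methionine enzyme, had 3.33, 4.80 and 4.55 FPKM in wild type and 5.77, 6.01 and 5.04 in the knockout (0.41 ± 0.17, limma adjusted p = 0.254). Tars2 and Hars2, for threonine and histidine, had log2 fold changes of 0.35 ± 0.16 and 0.30 ± 0.19. Nars2 and Sars2, for asparagine and serine, were at 0.26 ± 0.15 and 0.24 ± 0.42, and Vars2, Rars2 and Yars2, for valine, arginine and tyrosine, between 0.15 and 0.16. Fars2, Cars2 and Iars2, for phenylalanine, cysteine and isoleucine, were at 0.01 ± 0.19, -0.03 ± 0.33 and -0.03 ± 0.11. Wars2 was at -0.11 ± 0.16 and Aars2 at -0.28 ± 0.31. Aars2, the mitochondrial alanine enzyme, was at 2.74, 4.45 and 5.76 FPKM in wild type and 3.07, 3.90 and 3.68 in the knockout, while its cytosolic counterpart Aars rose.

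**Figure D3:**
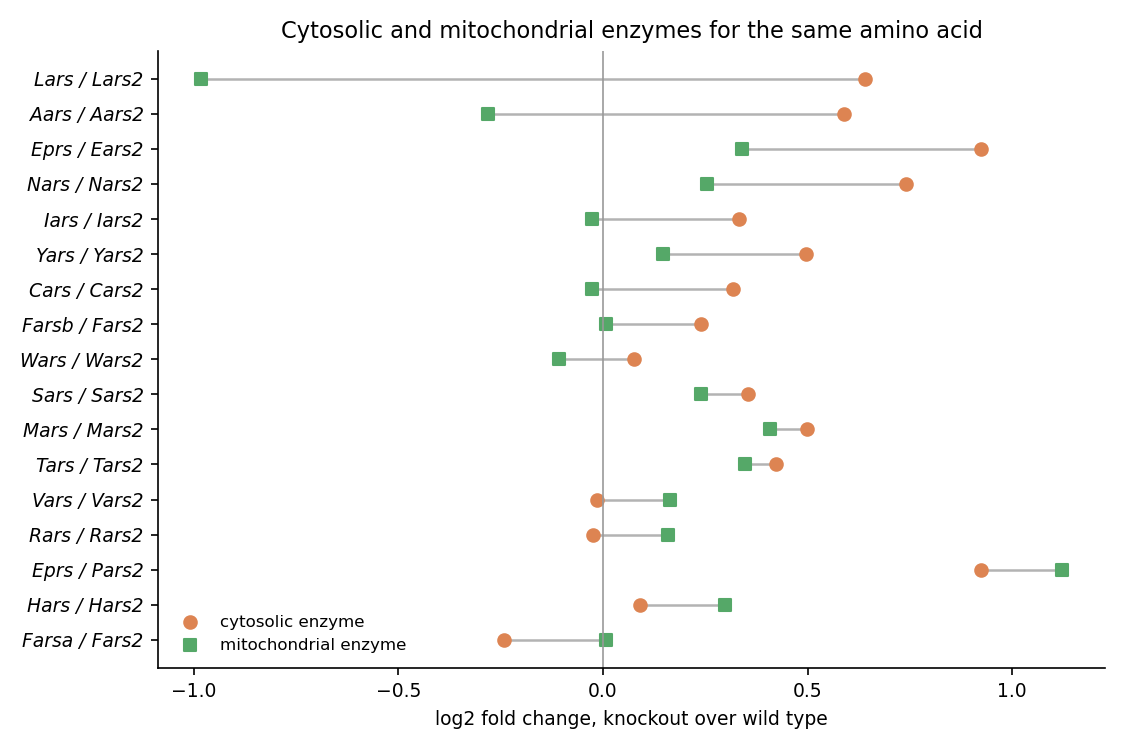
Log2 fold change, knockout over wild type (x axis), of the cytosolic gene (circles) and the mitochondrial gene (squares) for the same amino acid, joined by a line and ordered by their difference. The cytosolic gene has the higher value in 12 of 17 pairs, while in the pair of Eprs and Pars2 both lie near 1.

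Matched by amino acid, the cytosolic gene had the higher log2 fold change in 12 of 17 pairs and the lower in 5. The widest gap was 1.62 for Lars and Lars2, which rests on wild-type replicate 1, followed by 0.87 for Aars and Aars2 and 0.58 for Eprs and Ears2. The 5 pairs with the higher mitochondrial value were Farsa and Fars2, Hars and Hars2, Eprs and Pars2, Rars and Rars2, and Vars and Vars2, with gaps of 0.18 to 0.25. Across the 17 pairs Pearson's r of the 2 changes was 0.21 and Spearman's rho 0.30, over pairs that share all 6 libraries. None of these differences was tested.

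Genes that rose were found in and outside the enzymes' complex and in both structural classes. The multisynthetase complex holds 8 of the cytosolic gene products (Dars, Eprs, Iars, Kars, Lars, Mars, Qars and Rars), of which 2 rose. Their log2 fold changes ran from -0.17 to 0.92 around a median of 0.30. Of the 12 outside it 3 rose, with a median of 0.34 and a range of -0.24 to 1.01. By structural class, among the 9 class I genes 1 rose (median 0.32), among the 10 class II genes 3 rose (median 0.31), and Eprs holds a domain of each. Over all tested genes limma called 2.30% higher, and differences between these subgroups were not tested.

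Synthetase promoters were read for the letters bound by ATF4 and its partners, since ATF4 target genes carry a C/EBP-ATF response element. Windows of 250 bases before to 50 after the RefSeq start (GRCm38.p6) matched 27 of the 36 genes, 13 cytosolic and 14 mitochondrial. Windows on a whole chromosome were left out before matching, also from the 27025 genes counted below. Cars, Hars, Lars, Nars, Rars, Vars, Wars, Hars2 and Pars2 had no window among the rest, so they were not read. The core TGATGCAA, on either strand, was in 4 of the 13 cytosolic windows (Aars, Iars, Tars and Yars) and in none of the 14 mitochondrial ones, against 1.03% of 27025 genes. With the sixth letter free, TGATGNAA, which contains the first motif, was in 5 of 13 (Gars in addition) and again none of 14, against 4.51% of genes. To show where the letters lie, 30 bases at the site of 4 genes are given 5' to 3' on the gene's strand, with the matching letters in capitals:
Gars, chr6:55037960-55037989, plus strand: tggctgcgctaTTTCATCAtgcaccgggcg
Tars, chr15:11399655-11399684, minus strand: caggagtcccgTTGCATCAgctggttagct
Yars, chr4:129189895-129189924, plus strand: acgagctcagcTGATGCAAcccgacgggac
Iars, chr13:49682126-49682155, plus strand: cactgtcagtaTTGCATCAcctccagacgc

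The match began 30 bases before the start in Gars and 15 before in Tars, and at base 4 and base 8 after it, counting the start as 1, in Yars and Iars. All 5 genes with these letters had knockout libraries wholly above wild type, with log2 fold changes of 0.33 to 1.01 (median 0.50), and 2 of the 5 were called. The 8 cytosolic genes with a window that lacks them ranged from -0.24 to 0.92 (median 0.25). Of these, 5 had knockout libraries wholly above wild type, Farsa had them wholly below, and 1 was called, Eprs. Over all tested genes 14.2% had knockout libraries wholly above wild type, 11.9% wholly below, and limma called 2.30% higher. The difference between the genes with and without the letters was not tested, and the called cytosolic genes Nars and Lars had no window to read. Such matches are letters, not measured binding, and their absence says only that they are not in this window. With the 250 bases before the start alone, the core remained in 2 of 13 (Aars and Tars), against 0.918% of genes. The looser letters remained in 3 of 13 (Aars, Gars and Tars), against 3.91%, and fold changes were not compared again for that window.

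The stretches before the start of 2 genes that rose are printed to show such a site in context, for Gars, and, for Eprs, a window without them. Capitals mark TGATGNAA on either strand and the E-box CACGTG, the letters read by bHLH factors such as CLOCK, BMAL1 and MYC:
Gars, chr6:55037751-55038000, plus strand: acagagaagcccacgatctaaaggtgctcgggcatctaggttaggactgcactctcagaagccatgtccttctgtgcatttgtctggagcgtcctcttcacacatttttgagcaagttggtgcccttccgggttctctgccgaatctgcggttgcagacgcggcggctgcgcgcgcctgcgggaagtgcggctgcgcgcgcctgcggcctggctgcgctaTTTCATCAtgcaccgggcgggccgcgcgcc
Eprs, chr1:185362794-185363043, plus strand: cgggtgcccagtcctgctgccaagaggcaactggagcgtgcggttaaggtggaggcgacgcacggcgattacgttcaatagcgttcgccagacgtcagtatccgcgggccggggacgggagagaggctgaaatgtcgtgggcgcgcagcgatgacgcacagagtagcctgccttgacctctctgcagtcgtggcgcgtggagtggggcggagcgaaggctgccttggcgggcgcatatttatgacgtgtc

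The E-box was in 4 of 13 cytosolic windows (Aars, Farsb, Iars and Tars) and 1 of 14 mitochondrial windows (Ears2), against 8.09% of genes. The letters GCGCATGC, part of the site of NRF1, a regulator of nuclear genes for mitochondria, were in no cytosolic window and in 3 of 14 mitochondrial ones (Rars2, Vars2 and Wars2), against 3.05% of genes. Those 3 genes had log2 fold changes of 0.16 ± 0.10, 0.16 ± 0.42 and -0.11 ± 0.16, and none was called.

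Genes of the ATF4 pathway were set beside the synthetases for the same libraries. Of 31 listed genes 23 passed the filter, and limma called 7 higher (30.4%) and none lower (14 higher and none lower at an unadjusted p under 0.05, and 14 and none by the authors' q). Their median log2 fold change was 0.90. Mthfd2, a mitochondrial folate enzyme, went from 1.80 ± 0.479 to 37.5 ± 12.2 FPKM, and the amino acid transporter gene Slc7a5 from 0.341 ± 0.0591 to 2.95 ± 0.729. Sesn2, a leucine sensor that restrains mTORC1, went from 0.491 ± 0.170 to 2.05 ± 0.421 FPKM, and Atf5, a transcription factor of the same family, from 10.5 ± 1.87 to 29.1 ± 1.41. Slc7a5, Sesn2, Trib3, Asns and Psat1 had wild-type means under 1 FPKM and passed the filter through the knockout. The counts and median of this list are therefore not taken as support. Atf4 itself, named here outside the rule for named genes, had 144, 126 and 137 FPKM in wild type and 264.5, 212.5 and 213 in the knockout (0.76 ± 0.12, limma adjusted p = 0.0230). Its fold of 1.70 lay between those of Eprs and Nars, and its call too was lost with any library but wild-type replicate 1 left out (limma adjusted p of 0.0535 to 0.110).

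Knockout replicate 1 was the highest of the 3 knockout libraries for all 6 synthetases that rose, and for 9 of all 20 cytosolic genes. Relative to the wild-type mean, the median cytosolic gene on the log2(FPKM + 1) scale stood at 0.38 in knockout replicate 1, 0.25 in replicate 2 and 0.26 in replicate 3, against -0.05 to 0.10 in wild type. For the mitochondrial class it was the lowest of the 3, at 0.03 against 0.21 and 0.14, with wild type at -0.11 to 0.08. Knockout replicate 1 is also the shallowest library, with 0.660 times the depth of wild-type replicate 1, and the part of depth in this order was not tested.

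**Figure D4:**
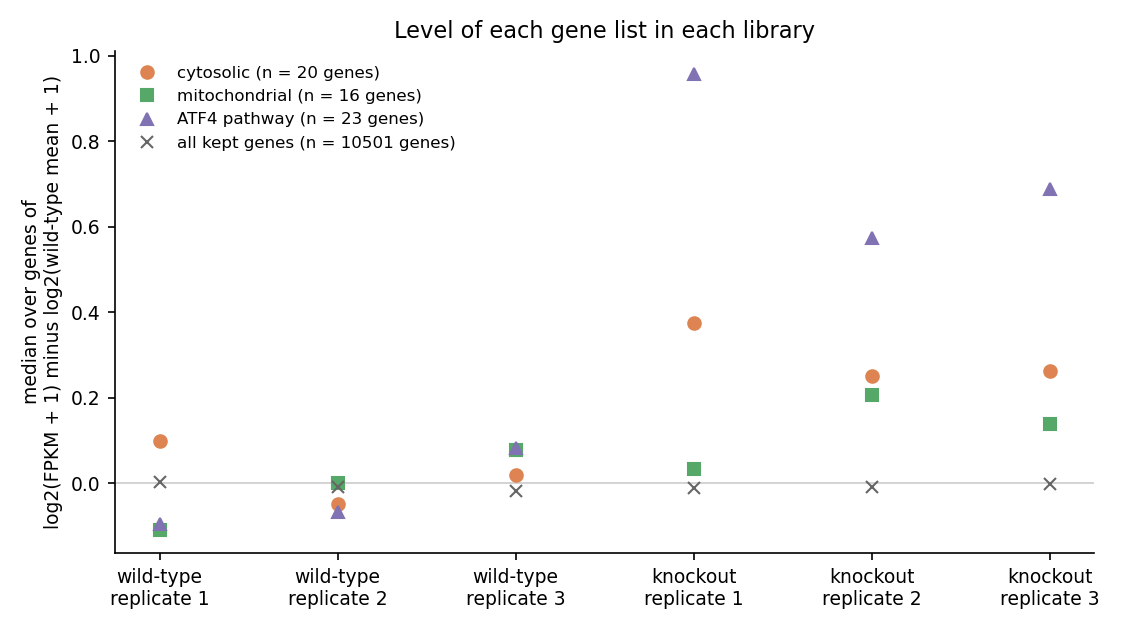
For each library (x axis), the median over genes of log2(FPKM + 1) minus log2 of the wild-type mean + 1 (y axis), for the cytosolic and mitochondrial synthetases, the ATF4 pathway genes and all tested genes. The cytosolic points of the knockout lie at 0.25 to 0.38, above all 3 wild-type points, while all tested genes stay within 0.02 of 0. The ATF4 points include genes that passed the filter through the knockout and are drawn as values only.

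Of the 3 genes for scaffold proteins of the multisynthetase complex limma called 1 lower and none higher, against 1.34% and 2.30% of all tested genes. This was Aimp2, whose product holds the complex together, with 84.7, 76.8 and 76.9 FPKM in wild type and 41.1, 42.8 and 51.2 in the knockout. That is a 1.76-fold fall (-0.82 ± 0.11, limma adjusted p = 0.0182), with every knockout library below every wild-type library, as in 11.9% of all tested genes. The fall held its size with any library left out (-0.92 to -0.76). By limma it was not called when wild-type replicate 2 (adjusted p = 0.0906), knockout replicate 1 (0.0670) or knockout replicate 2 (0.0535) was left out. Aimp1 and Eef1e1, the other scaffold genes, were at -0.24 ± 0.10 and -0.16 ± 0.19 and were not called. These are RNA levels, and the complex itself was not measured.

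Mitochondria lack a glutamine enzyme of their own, and instead Ears2 loads glutamate, which an amidotransferase turns into glutamine on the tRNA. Of its 3 subunit genes limma called 1 higher, against 2.30% of all tested genes. This was Gatb, which rose from 8.96, 7.76 and 6.54 FPKM to 12.9, 14.1 and 14.2 (1.77-fold, 0.82 ± 0.14, limma adjusted p = 0.0264). Its call was lost with any library but wild-type replicate 1 left out, with limma adjusted p of 0.0547 to 0.115 and a change on the log2(FPKM + 1) scale of 0.66 to 0.80. Its partners Gatc and Qrsl1 were at 0.05 ± 0.08 and -0.01 ± 0.14. The 6 cytosolic elongation factor genes, which carry charged tRNA to the ribosome or move it along, had no call by limma in either direction (0 at an unadjusted p under 0.05, and 0 by the authors' q), with a median of -0.10. The 10 mitochondrial translation factors had none either (also 0 by both of those counts), with a median of 0.13. Among 6 of 7 listed genes for tRNA editing and maturation that passed the filter none was called (2 higher at an unadjusted p under 0.05 and 0 by the authors' q), with a median of 0.15.

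The labels do not say whether the libraries keep strand, so reads of overlapping genes cannot be told apart. In RefSeq (GRCm38.p6) 16 of the 36 synthetase genes overlap another annotated gene. Of the 6 that rose, Aars overlaps Ddx19b and Lars a ribosomal protein pseudogene, while Gars, Eprs, Nars and Pars2 overlap none. Mars overlaps Ddit3, Aimp2 overlaps Eif2ak1, Gatb and Lars2 each overlap a long noncoding RNA gene, and Hars and Hars2 overlap each other.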

How the data were processed

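RNA-seq of mouse quadriceps (3 wild-type and 3 HDAC3 knockout libraries, ZT10, rest) was used as deposited. The authors' FPKM values per library were deposited. The submitters' processing notes name TopHat2, Cuffdiff and mm9, with no versions, annotation, strand setting or library scaling. The deposited table also holds the authors' p-value and q-value per gene, where a p-value of 1 was read as not tested. Read numbers are not in the table: relative depth came from the commonest ratio of values under 0.3 FPKM to wild-type replicate 1. Counts were not rebuilt. Samples were grouped and numbered by their labels, which do not say that replicates are separate animals, so p-values measure a spread that may be technical.

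Genes with a mean of at least 1 FPKM over the 6 libraries (10501) were fitted with limma 3.58.1 in R 4.3.3 on log2(FPKM + 1) with a mean-variance trend, two-sided, Benjamini-Hochberg adjusted, call under 0.05. The pseudocount of 1 understates changes of low genes, so fold changes in the text are ratios of group means (delta-method SE) unless named as limma's. On simulated data for the same comparison and 10501 genes, limma found 24% of the genes changed 1.5-fold, 70% at 2-fold and 92% at both 3-fold and 4-fold. It made 7 false calls. In the simulation 50 genes were changed at each fold, the change was added on the log2(FPKM + 1) scale, and noise was normal and independent between libraries. The recovered shares are for that setting. The members and gene lists were chosen with earlier results of these data known. Named are all members, with values per library for those called by limma or the authors' q and for the extremes of level and change in each class, up to 4 called genes of each other list, and promoters of at most 6 called members. Pax7, Myf5, Cdh15, Chodl, Cd34, Sdc4, Calcr, Col1a2, Lep, Mrc1, Trib3, Asns, Psat1, Farsb, Mars, Mars2, Aars2, Atf4 and Rn45s were added after their values were seen. So were the sites of Iars and Tars. Promoter sequences are from RefSeq, GRCm38.p6, matched by symbol (Mars through its current symbol), with the windows of a whole chromosome left out first. The HDAC3 peak lists are on mm9, for which no annotation was used here, and were left out. The promoter sequence of 1 gene with a match is not reported here.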

Additional observations from a re-analysis of the deposited data

How the results depend on the processing

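The class medians kept their sign under every alternative tried (another pseudocount, no filter, only genes the authors tested, libraries centred on their medians, a replicate block, and each library left out): 0.27 to 0.35 for the cytosolic and 0.09 to 0.24 for the mitochondrial genes with a library left out, and 0.16 for the latter without Lars2, a setting added after seeing the data, as was a fit without the mean-variance trend. That fit kept 4 of the 5 cytosolic calls and the mitochondrial one, losing Lars (limma adjusted p = 0.0595) and leaving Aars at 0.0493. The number of calls depended more on the setting. The 5 cytosolic calls were 0 to 4 and the 1 mitochondrial call 0 with a library left out, where fewer samples entered each fit. Without a filter on low values 16931 genes were tested and the mitochondrial call was lost, leaving 0. No synthetase was called lower in any limma setting, and 1, Lars2, by the authors' q.

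Replicate numbers are shared by the groups, but same-numbered libraries had correlations of deviations of only 0.04 to 0.05, under 0.1, so the numbers were not taken as pairs. Each library did correlate best with its own number, a hint from the data and not from the design. With a replicate block 1 cytosolic call (Eprs, adjusted p = 0.0494 by limma) and 0 mitochondrial calls remained, and calls over all genes went from 383 to 36. The block also ended the calls of Aimp2, Atf4 and Gatb (limma adjusted p = 0.0680, 0.0628 and 0.0848).

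With each library left out in turn, the log2 ratio of means crossed 0 in 9 of the 36 synthetases (Rars, Vars, Wars, Cars2, Fars2, Iars2, Lars2, Vars2 and Wars2), none of them called by limma. Limma values per left-out library were kept for 11 genes, and 2 of these turned sign. Lars2 ran from -1.05 to 0.083, positive when wild-type replicate 1 was dropped. Vars, at 0.014 with all libraries, ran from -0.096 to 0.218, negative when wild-type replicate 1, wild-type replicate 2 or knockout replicate 3 was dropped, and was at -0.015 in the authors' deposited values. The cause was not tested. With 3 libraries a group, changes of 1.5-fold on the log2(FPKM + 1) scale were mostly missed on simulated data (24% recovered). Recovery for the synthetases themselves was not tested, and an uncalled synthetase is not shown to be unchanged.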
